A study of Mus musculus with 15 samples.

Results

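The 89 genes described here encode the protein subunits of the cytosolic ribosome, with a few close paralogs, in sorted nuclei of the mouse ventral tegmental area. They were chosen by symbol among 35976 genes: every symbol that starts with Rpl or Rps followed by a digit, with Rpsa, Rplp0, Rplp1 and Rplp2, and without names holding -ps and without the S6 kinases. Of these, 46 are canonical large subunit genes, 31 are canonical small subunit genes and 12 are paralogs or others. The rule also takes in Rps19bp1, which encodes a binding partner of a ribosomal protein, and the annotated pseudogenes Rpl32l, Rpl37rt and Rps4l. A filter on low counts left 87 to be tested, and Rpl10l and Rpl39l were at 0 counts in all 15 libraries.

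All mice were male heterozygous DAT-Cre animals (B6.SJL-Slc6a3tm1.1(cre)Bkmm/J), aged 8 to 12 weeks, that received the Cre-dependent virus AAV5-DIO-KASH-HA in the ventral tegmental area 14 days before the behavioural work. DAT-Cre is active in cells that use the Slc6a3 locus, so the tagged nuclear envelope marks those cells, and each library pools 2 mice. HA-positive nuclei (DA) were sequenced after operant food training over 7 days (FT, 4 libraries), after cocaine maintenance (MN, 3 libraries) and after 21 days of abstinence in the home cage, a stage labelled craving (CRV, 4 libraries). MN and CRV mice had the same food training, then catheter surgery, which FT mice did not have, and then took intravenous cocaine in daily 1-hour sessions, with 0.3 mg/kg per infusion for 5 days and 1.0 mg/kg for 10 days. HA-negative nuclei (nDA, 4 libraries) came from food-trained mice. The labels call them non-dopaminergic neurons, but the sort is described with HA and DAPI alone and glial markers were high in them, as given below.

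Ribosomal proteins assemble with ribosomal RNA in the nucleolus into a large and a small subunit, which join on messenger RNA to make protein. Their messenger RNAs are among the most abundant in cytoplasm, and most begin with a short run of pyrimidines through which the kinase mTORC1 and the protein LARP1 control translation. Many of the genes also carry small nucleolar RNAs in their introns. Nuclear RNA holds newly made and retained transcripts, so the levels below are not cytoplasmic levels.

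Many of the genes share features at their start sites that the choice by symbol did not use. A promoter sequence was found for 68 of them in RefSeq (GRCm38.p6), from 250 bases before to 50 after the annotated start. An unbroken run of at least 6 C or T bases on the coding strand overlapped the stretch from 5 bases before to 10 after the start in 34 of the 68 (50%), against 24.4% of 27025 promoters of the same length. The following windows of 30 bases are centred on the start and run 5′ to 3′. Capitals mark the pyrimidine run, and the windows are shown because the tract is the element known for this gene class. The first 4 genes have it, and Rps19, Rpl13 and Rpl22 have no run of that length overlapping that stretch.
Rps6: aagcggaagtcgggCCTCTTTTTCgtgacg
Rpl35: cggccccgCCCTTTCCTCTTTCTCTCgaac
Rpl38: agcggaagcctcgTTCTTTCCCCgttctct
Rplp2: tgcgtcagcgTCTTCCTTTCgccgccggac
Rps19: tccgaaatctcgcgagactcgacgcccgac
Rpl13: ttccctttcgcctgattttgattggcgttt
Rpl22: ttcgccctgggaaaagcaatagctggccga
These lie at chr4:86857353-86857382 (minus strand), chr2:39005117-39005146 (minus), chr11:114668565-114668594 (plus), chr7:141447636-141447665 (plus), chr7:24884577-24884606 (plus), chr8:123102335-123102364 (plus) and chr4:152325711-152325740 (plus).

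In the whole promoter window, before or after the start, the letters CCGGAAG, the core bound by ETS-family factors, were found on either strand in 25 of the 68 promoters (36.8%), against 9.12% of all promoters. GGGCGG, the core bound by Sp1, was in 58.8% against 35.9%, and AAGATGG, found in YY1 sites, was in 13.2% against 6.48%. TATAAA was in 10.3% against 14.2%. CCGGAAG and AAGATGG can overlap by sharing AAG. The members' promoters were also richer in G and C, with a median of 57.5% against 52.7% over all promoters, and the shares were not adjusted for this. A match describes the letters only. The windows below, again 30 bases on the coding strand and all upstream of the start, show CCGGAAG or its reverse complement in capitals in 4 genes that were higher in DA nuclei.
Rps6: gttaatctacgcCCGGAAGtaacgcccctc
Rpl41: ctagtaaggcagCCGGAAGtcgctgtctcg
Rps25: ccacccattgccCCGGAAGtactctctcga
Rps2: tatttatacgtcCTTCCGGctggtgtaggg
They lie at chr4:86857441-86857470 (minus strand), chr10:128549207-128549236 (minus), chr9:44407629-44407658 (plus) and chr17:24719924-24719953 (plus).

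Library totals ran from 25813697 to 59046618 counts, and the genes together held 72911 to 292731 counts per library, or 0.174 to 0.509% of the total. Levels are given in CPM, counts divided by the TMM-scaled library total and multiplied by 1000000. The sort was checked against markers in food-trained mice. All 10 dopaminergic markers were higher in DA than nDA nuclei, 9 of them at an adjusted p under 0.05 by edgeR, against 3.63% of all genes. Slc6a3 was at 2989 ± 1053 CPM against 92.8 ± 18.4 (SD, n = 4 each). All 9 oligodendrocyte and all 6 microglial markers were higher in nDA nuclei, 7 and 6 of them at that threshold, against 9.17% of all genes. Summed oligodendrocyte marker levels were 9384 to 22306 CPM in nDA libraries against 1084 to 2768 in the 11 DA libraries. In DA libraries Mag was at 26.6 to 122 CPM and Mog at 19.8 to 64.9, against 933 to 1375 and 326 to 1024 in nDA libraries. Olig1, named after its values were seen, was at 16.4 to 49.9 CPM in FT and 27.2 to 50.8 in CRV, but at 0 to 0.208 in MN DA libraries, and Olig2 was at 0 in at least 1 library of each DA group. In bulk nuclei, fewer cells of a type and less RNA per cell cannot be told apart.

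Summed over all 89 genes, the level in DA nuclei after food training was 5057, 3292, 3304 and 3280 CPM in libraries 1 to 4. In nDA nuclei of food-trained mice it was 1694, 2612, 1701 and 1730 CPM. The groups did not overlap, but library FT DA 1 stood above the other 3 of its group and library nDA 2 stood above its own. MN DA libraries held 4333, 4739 and 4322 CPM, and CRV DA libraries 3882, 4020, 2957 and 3652. The food-trained ratio of means was 1.93, MN over FT was 1.20 and CRV over FT was 0.972. FT DA 1 was the highest of its group for 66 of the 87 tested genes, nDA 2 for 80, and CRV 3 was the lowest of its group for 50.

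**Figure D1:**
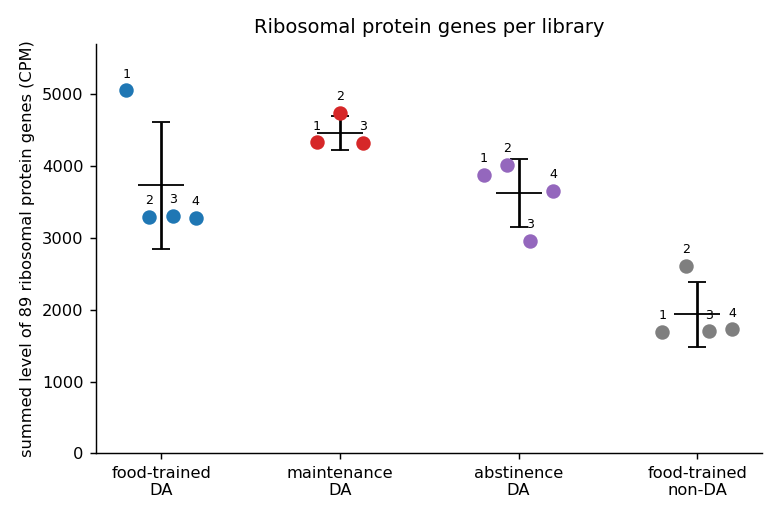
Summed level of the 89 ribosomal protein genes per library in CPM, with points numbered by replicate and bars giving the group mean ± SD. DA libraries lie between 2957 and 5057 CPM and nDA libraries between 1694 and 2612.

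In food-trained mice the ribosomal protein genes were higher in DA than in nDA nuclei as a broad group, by a median log2 fold change of 1.04 (2.06-fold). Of the 87 genes tested, 28 rose and 0 fell (edgeR quasi-likelihood test, adjusted over all genes), a share of 32.2%, against 3.63% of all 19786 genes called higher and 9.17% called lower. Among genes of similar abundance (mean log2 CPM over 4) 7.11% were called higher. The median over all genes was -0.21, and -0.02 among the abundant ones. In 81 of 87 the log2 fold change was above 0, compared with 41.7% of all genes, and in 40 all 4 DA libraries lay above all 4 nDA libraries, compared with 6.41%. Both subunits took part: 16 of 46 large subunit genes were called, with a median of 1.03, and 12 of 31 small subunit genes, with a median of 1.13. Of the 10 paralogs and others tested 0 were called, and 1 had an unadjusted p under 0.05. Over all 87 that number was 58, all of them higher, against 9.06% of all genes. DESeq2 called 54 higher, against 7.61%, and limma-voom 56, against 4.51%.

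With the replicate number as a block, since same-numbered DA and nDA libraries deviated together, 5 genes were called, Rpl13, Rpl13a, Rpl32 and Rps19 among them, and the median was 1.05. The block called 2.09% of all genes higher. Without FT DA 1 the count was 17, against 3.09% of all genes. Without nDA 1, nDA 3 or nDA 4 it was 11 in each case, against 1.81%, 1.95% and 2.13% of all genes. All 28 kept a log2 fold change above 0 in every alternative run. Markers of glial and vascular cells were mostly lower in DA nuclei here, and their part in the comparison was not tested. Besides oligodendrocyte and microglial markers, the summed level was 730 to 931 CPM in FT DA against 1473 to 3032 in nDA libraries for astrocytes. Of 6 astrocyte markers 2 were called lower, against 9.17% of all genes, and 2 were above 0. The summed level was 1.05 to 28.98 against 120 to 181 for oligodendrocyte precursors and 0 to 73.1 against 219 to 407 for vascular cells. Of their 3 and 5 markers all were below 0 and 0 were called. Of 3 GABA and 2 glutamate neuron markers 0 were called, and 1 of each was above 0.

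**Figure D2:**
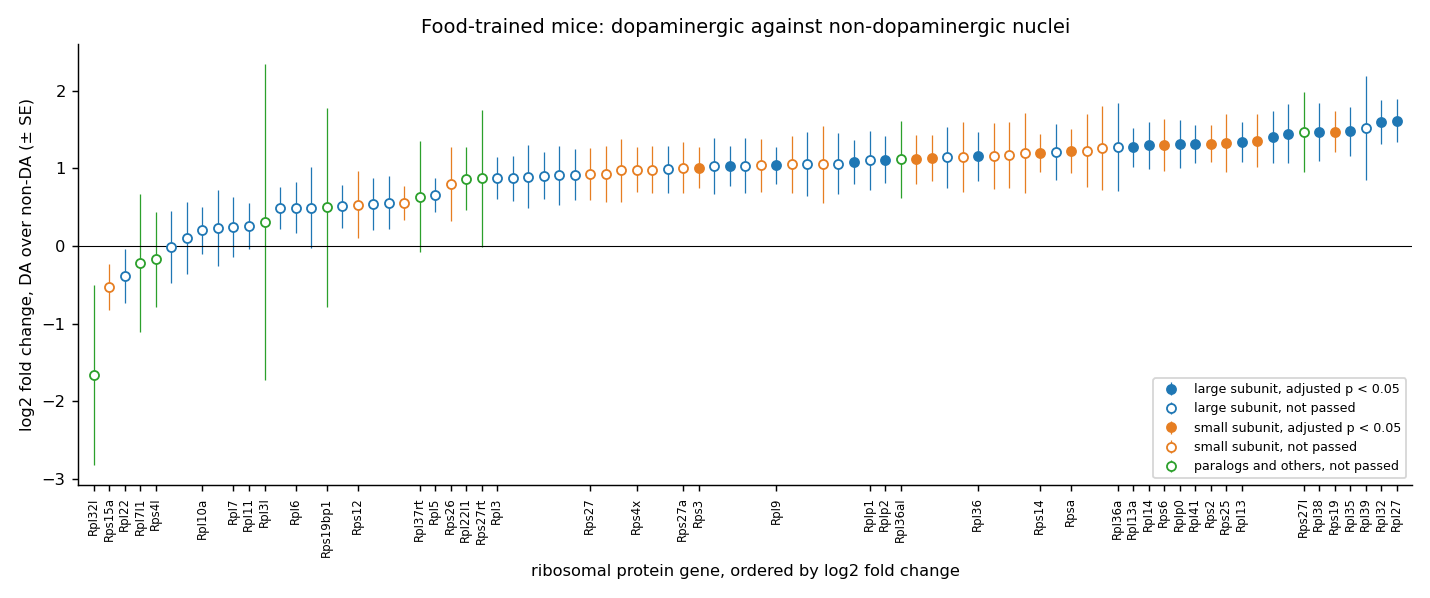
Log2 fold change of 85 of the 87 tested genes, DA over nDA nuclei of food-trained mice, with bars of 1 SE from edgeR, ordered by value and coloured by class. Filled points are the 26 of these past an adjusted p of 0.05, all above 0, and the genes described in the text are labelled.

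Rpl27, a large subunit protein at chr11:101442298-101445529 in the GENCODE annotation of GRCm38, had the highest fold change of all 87. Its level was 54.0, 46.3, 47.5 and 32.8 CPM in the DA libraries and 12.4, 19.0, 15.2 and 13.0 in the nDA libraries. The lowest DA library lay above the highest nDA library, and the log2 fold change was 1.61 (SE 0.28, adjusted p = 0.00670, edgeR). Rpl32 (chr6:115805505-115808747) was at 71.9, 53.9, 42.7 and 50.0 CPM in DA and 15.6, 23.7, 13.3 and 19.9 in nDA libraries, a log2 fold change of 1.60 (SE 0.28).

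Rps19, a small subunit protein mutated in Diamond-Blackfan anaemia, was at 93.8, 65.5, 71.5 and 49.9 CPM in DA against 23.0, 33.5, 23.2 and 22.1 in nDA libraries. FT DA 1 was the highest and nDA 2 the highest of its group, and the log2 fold change was 1.47 (SE 0.26, adjusted p = 0.00670 by edgeR). Rps2, whose exons overlap the antisense host gene Snhg9, was at 102 ± 26.7 CPM against 41.3 ± 8.28 (SD, n = 4 each), a log2 fold change of 1.32 (SE 0.24).

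Rpl13a (chr7:45125558-45128761) carries 4 annotated small nucleolar RNAs and was the member with the highest level per length in DA nuclei after food training. It was at 172, 134, 83.4 and 112 CPM in DA and 47.2, 65.2, 52.2 and 44.1 in nDA libraries, with no overlap and a log2 fold change of 1.27 (SE 0.25). Rpl13 (chr8:123102350-123105244) was at 215, 139.5, 124 and 116 CPM against 51.8, 80.4, 50.2 and 53.5, a log2 fold change of 1.34 (SE 0.26, adjusted p = 0.00794 by edgeR). Rpl41, which encodes a very small protein, had the tightest DA libraries of those named, relative to their mean. It was at 51.2 ± 5.01 CPM against 20.7 ± 4.77, with a log2 fold change of 1.32. Rps14, Rpl35 and Rpl9 were also called, with log2 fold changes of 1.19, 1.48 and 1.04.

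The acidic proteins Rplp0, Rplp1 and Rplp2 form the stalk that recruits elongation factors. Rplp0 (log2 fold change 1.31, adjusted p = 0.0209) and Rplp2 (1.11, adjusted p = 0.0422) were called by edgeR, and Rplp1 had a value of 1.10 with an adjusted p of 0.103. Rps6, the substrate of S6 kinase downstream of mTORC1, was at 107, 60.4, 92.1 and 46.9 CPM in DA and 27.2, 46.8, 23.3 and 28.1 in nDA libraries. Its lowest DA library lay just above the highest nDA library, nDA 2, and its log2 fold change was 1.30 (SE 0.33, adjusted p = 0.0328 by edgeR). Rpsa, also known as a laminin receptor, was called at 1.22 on the log2 scale, and so were Rpl38 at 1.47, Rps25 at 1.32, with an adjusted p of 0.0498 by edgeR, and Rps3, also a DNA repair protein, at 1.01. Rpl38 and Rps25 are known for roles in the translation of particular messenger RNAs.

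Rpl5 and Rpl11, which with 5S ribosomal RNA bind Mdm2 and stabilise p53 when ribosome assembly fails, were not called. Rpl11 was at 28.9 ± 6.52 CPM in DA and 24.4 ± 5.52 in nDA nuclei (SD, n = 4 each), a log2 fold change of 0.26 (SE 0.30), and Rpl5 had 0.66 (SE 0.22) with an adjusted p of 0.0941 by edgeR. Rps27a, made as a fusion with ubiquitin, had 1.01 with an adjusted p of 0.0831 by edgeR. Rps26 had 0.80 (SE 0.47) and Rpl10a, known for marking a subset of ribosomes, had 0.21 (SE 0.30).

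Of the members 6 had a value below 0, and 2 had no overlap in that direction, against 19.7% of all genes. Rpl22, a large subunit protein that is not essential for the ribosome, was at 9.99, 23.4, 23.0 and 24.8 CPM in DA and 26.5, 25.6, 29.2 and 25.6 in nDA libraries. Every DA library lay below every nDA library, by a narrow margin except in FT DA 1, and the log2 fold change of -0.38 (SE 0.34) was not called (adjusted p = 0.579 by edgeR). Rps15a was at 22.8, 14.8, 27.5 and 16.2 CPM against 30.4, 30.6, 26.9 and 30.5, a value of -0.53 (SE 0.30) that also was not called. The pseudogene Rpl32l had -1.66 (SE 1.16) at 1.60 ± 1.71 CPM against 5.10 ± 1.14. Whether reads were split between it and a near-identical copy such as Rpl32, which was higher in DA nuclei, was not tested.

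Paralogs were compared with their canonical partner per length, in CPM per kilobase of the longest transcript. Rpl22 and its partner Rpl22l1 stood at 9.90 and 10.1 CPM per kilobase in DA nuclei after food training and at 13.0 and 5.56 in nDA nuclei. They stood at 10.0 and 18.3 in MN DA and at 11.6 and 9.85 in CRV DA nuclei. The FT DA mean of Rpl22 includes FT DA 1, at 9.99 CPM against 23.0 to 24.8 in the other 3 libraries. Neither was called between the populations: Rpl22l1 had a log2 fold change of 0.87 (SE 0.40, adjusted p = 0.229 by edgeR), and the difference between the partners was not tested. Rps27 and Rps27l stood at 90.1 and 38.4 CPM per kilobase in DA nuclei after food training, Rpl36a and Rpl36al at 20.3 and 13.0, Rpl7 and Rpl7l1 at 23.7 and 7.87, and Rps4x and Rps4l at 44.5 and 8.49. Rpl3 stood at 73.4 CPM per kilobase there, while Rpl3l, the striated muscle form, was at 0.792 and had counts in only 1 of the 4 FT DA libraries. Rpl39 stood at 13.5 CPM per kilobase, and its partner Rpl39l, like Rpl10l, had no counts.

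In the order of levels per length in DA nuclei after food training, Rpl13a (119.7 ± 35.6 CPM per kilobase, SD, n = 4), Rpl36 (108.9 ± 42.8), Rps2 (93.6 ± 24.4) and Rps27 (90.1 ± 28.3) were among the highest 5. Neighbours among these lay closer to each other than their spread. Rpl32l, Rps15a, Rps27rt, Rpl37rt and Rpl3l came last among the genes tested. With the median transcript length, 2 of the first 5 remained in the first 5, so the order depends on the length used. Rps15a, whose longest annotated transcript has 5179 bases, stood at 31.9 CPM per kilobase by the median length and 3.93 by the longest.

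**Figure D3:**
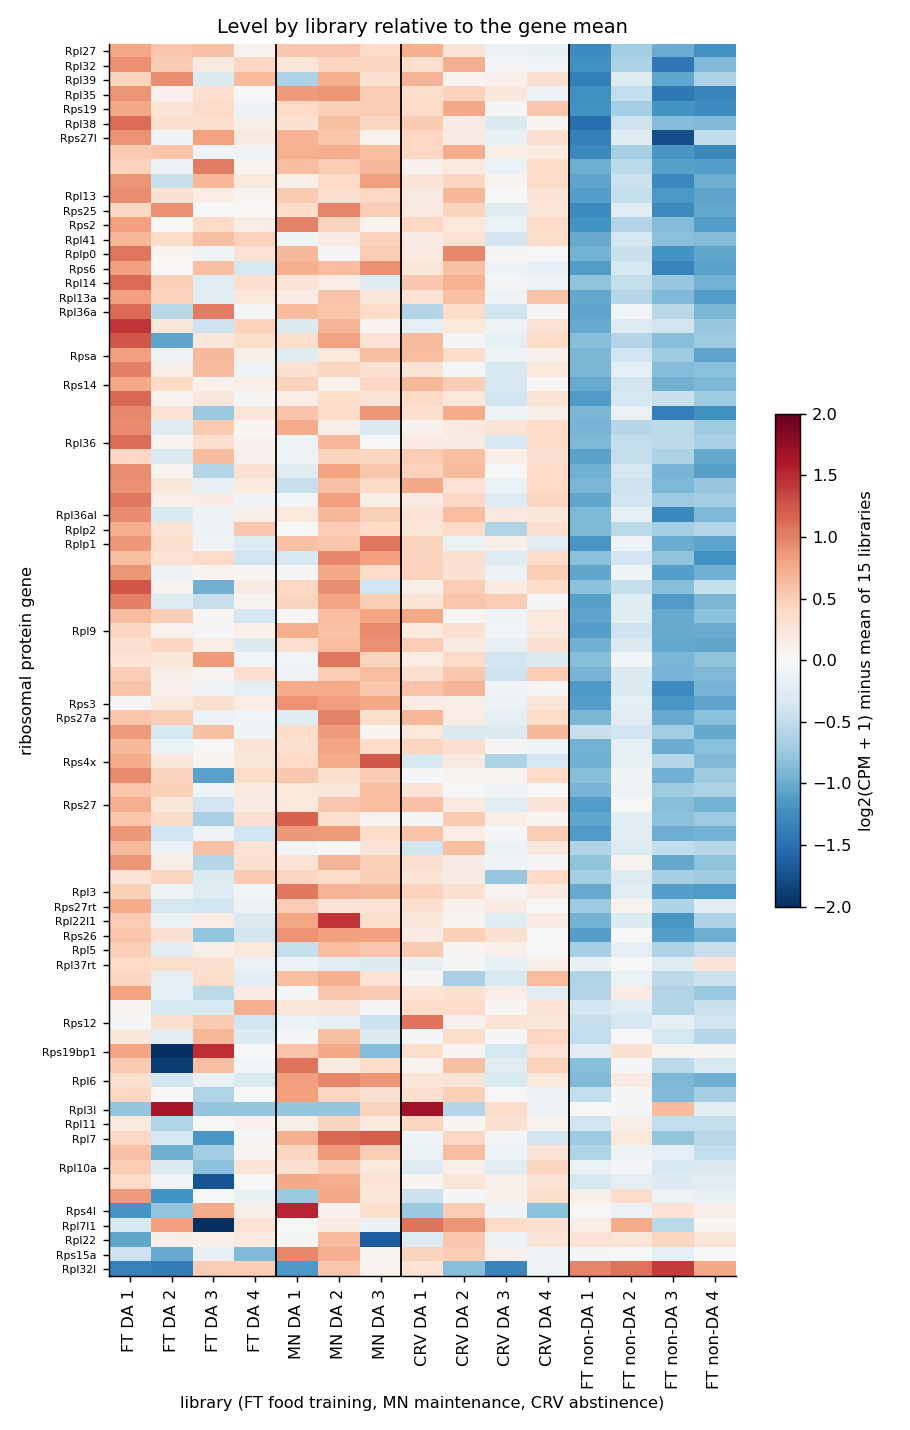
Level of 85 of the 87 tested genes in each of the 15 libraries, as log2(CPM + 1) minus the gene's mean over the libraries, in the order of the DA over nDA fold change. The 4 nDA columns are low for most genes, least in nDA 2, and FT DA 1 is high for most; Rpl22, Rps15a and Rpl32l at the foot do not share this pattern.

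The fold change is given here by the features examined, as a description. Genes that host an annotated small nucleolar RNA (30 tested) had a median log2 fold change of 1.03, and the 57 others 1.04. Those with a pyrimidine run at the start had a median of 0.92 with 10 of 33 called, and those without had 1.06 with 12 of 33. Those with CCGGAAG in the promoter had 1.15 with 11 of 24 called, and those without had 0.99 with 11 of 42. The 28 genes called had a median GC content of 53.4%, and the 59 others 49.4%. Across the 87 genes, which share the same libraries, Spearman's rho of the log2 fold change was 0.227 with GC content and -0.20 with transcript length. Exons of 22 tested genes overlap those of another annotated gene, and their median was 1.08 against 1.04 for the other 65.

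Other genes of the translation machinery were examined in the same comparison, where 3.63% of all genes were called higher and 9.17% lower. Fau and Rack1, which encode ribosomal proteins outside the naming rule, had log2 fold changes of 0.96 (adjusted p = 0.124) and 0.84 (adjusted p = 0.226 by edgeR), which did not pass the test. Of 38 translation factors 7 rose (18.4%) and 0 fell, with a median of 0.38: the elongation factors Eef1a1 (1.20) and Eef2 (0.73) and the initiation factor subunit Eif2s2 (1.35) were among them. Of 77 mitochondrial ribosomal protein genes 3 rose (3.90%), a share near that of all genes, and 0 fell, with a median of 0.42. In 63 of the 77 (81.8%) the value was above 0, against 41.7% of all genes. An unadjusted p under 0.05 by edgeR with a higher level was seen for 16 (20.8%), against 9.06%. Of 59 ribosome biogenesis genes 2 rose (3.39%) and 1 fell (1.69%), shares near or below those of all genes, with a median of -0.08: Gnl3, a nucleolar GTPase, had 1.45, Taf1d, of the RNA polymerase I initiation complex, 1.22, and Utp14a, of the small subunit processome, fell by 1.97 on the log2 scale.

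Of 19 genes listed around mTOR 0 rose and 1 fell (Larp4b, 5.26%, below the share of all genes), with a median of -0.30. The list holds mTORC1, its regulators and translation targets, and also Rictor and Mapkap1 of mTORC2, Larp4 and Larp4b. Larp4b is not a part of mTORC1. Mtor itself was at 30.1 ± 12.7 CPM in DA and 59.3 ± 11.5 in nDA nuclei (SD, n = 4 each), a log2 fold change of -0.97 that was not called (adjusted p = 0.141 by edgeR). Of 15 noncoding host genes of small nucleolar RNAs 0 were called by edgeR, 2 were higher with an unadjusted p under 0.05, against 9.06% of all genes, and the median was 0.26. Of 7 annotated ribosomal protein pseudogenes tested 0 were called, 1 was lower with an unadjusted p under 0.05, against 15.3% of all genes, and the median was 0.44.

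**Figure D4:**
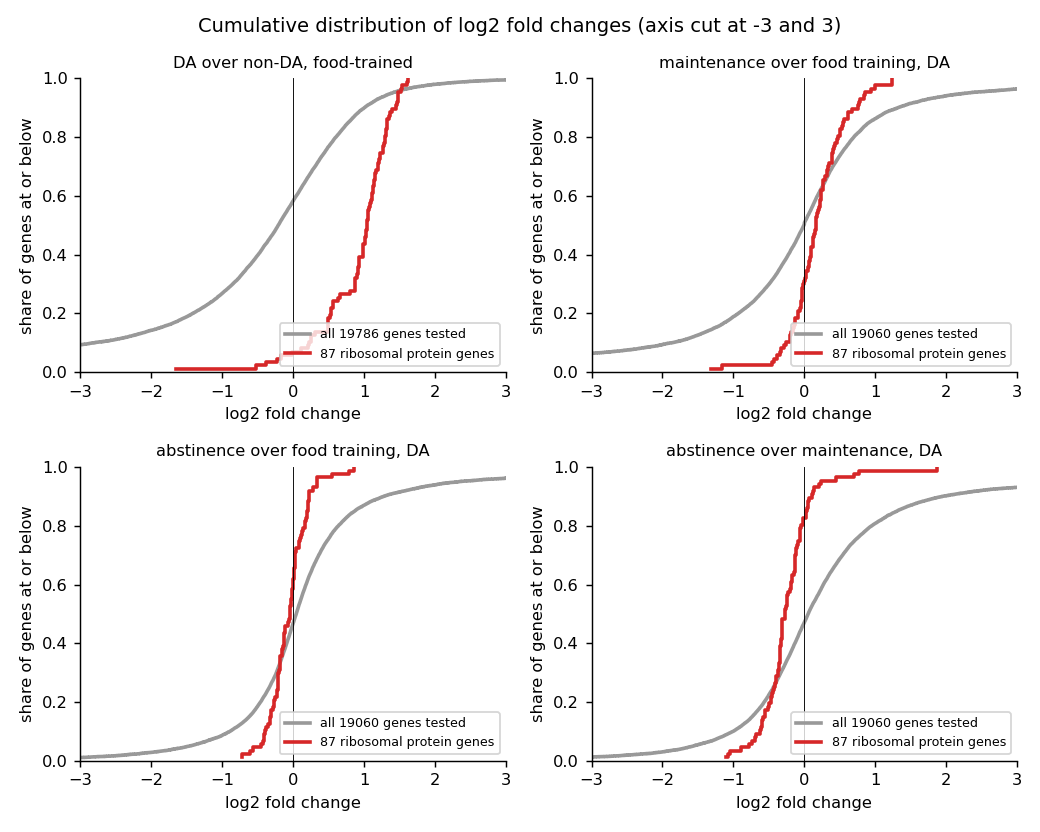
Cumulative share of genes by log2 fold change for all genes tested (grey) and the 87 ribosomal protein genes (red) in 4 comparisons, with the horizontal axis cut at -3 and 3. The red curve lies to the right in the DA over nDA panel (median 1.04 against -0.21) close to the grey curve in CRV over FT (-0.05 against 0.04), somewhat to the right in MN over FT (0.16 against -0.0072) and to the left in CRV over MN (-0.27 against 0.05).

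Among DA nuclei, the next question was whether the genes differed between cocaine maintenance and food training. No member passed the test: 0 of 87 by edgeR, against 0.131% of all 19060 genes, while 7 had an unadjusted p under 0.05, all higher in MN, against 4.88% of all genes. DESeq2 called 5, all higher in MN. It called 5.13% of all genes in either direction, 236 of 19060 higher and 741 lower. Its adjusted p was 0.0287 for Rpl3, 0.00918 for Rpl6, 0.0279 for Rpl7, 0.0259 for Rps3 and 0.0321 for Rps15a. Limma-voom called 0, against 0.0472%. The median log2 fold change was 0.16 against -0.0072 over all genes, 60 of 87 were above 0 against 49.2% of all genes, and 8 genes had all 3 MN libraries above all 4 FT libraries, against 4.31%. The median was 0.35 without FT DA 1, 0.077 without FT DA 2 and 0.052 without MN 2.

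Rpl6, a large subunit protein, was at 61.5, 37.5, 44.8 and 40.2 CPM in the FT libraries and 87.9, 96.7 and 91.3 in the MN libraries. All MN libraries lay above all FT libraries, and the log2 fold change was 0.99 (SE 0.26, adjusted p = 0.185 by edgeR). Rpl7 was at 57.1, 33.8, 18.5 and 41.7 CPM in FT and 70.9, 95.6 and 101 in MN, a value of 1.23 (SE 0.35, adjusted p = 0.229 by edgeR). Rps3 was at 63.3, 73.5, 81.5 and 72.1 CPM in FT and 122, 116 and 111 in MN, with no overlap and a value of 0.67 (SE 0.21). Rpl3, which reaches toward the peptidyl transferase centre, was at 138 ± 33.2 CPM in FT (SD, n = 4) and 234 ± 37.3 in MN (SD, n = 3), a value of 0.76 (SE 0.24).

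Rps15a, a small subunit protein, was at 60.5, 51.5 and 31.6 CPM in MN and 42.4, 44.4, 32.6 and 29.4 in CRV, and each of these lay above all 4 FT DA libraries. Its log2 fold change was 1.23 (SE 0.36) for MN and 0.86 (SE 0.34) for CRV, both over the same FT libraries, with adjusted p of 0.247 and 1.000 by edgeR. Rpl14, a large subunit protein, had the most negative value in MN over FT after the sparsely counted Rpl3l and Rpl37rt, -0.45 (SE 0.35), and its libraries overlapped.

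A technical measure moved with the MN group. Regressing log2 CPM on the GC percent of transcripts within each library gave slopes of -0.0378, -0.0225 and -0.0379 in MN and -0.0247 in nDA 2. They ran from -0.0166 to 0.0206 in the 8 other DA libraries. No other DA library shared the MN slopes, so the slope and the stage cannot be told apart. With a GC offset the MN over FT median was 0.23 with 0 called. With a term shared by MN and nDA 2, which rests on nDA 2 against the other nDA libraries, the median was -0.48 with 10 of 87 above 0, and Rpl6, Rpl3 and Rps3 went to -0.13, -0.14 and -0.28. Summed oligodendrocyte marker levels were 1084 to 1695 CPM in MN and 1694 to 2768 in FT libraries, and their part was not tested.

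After abstinence the genes stood near their food-training levels. Of 87, 0 were called by edgeR (0% of all genes), 0 by DESeq2 (0.735%) and 0 by limma-voom (0%), and 1, Rps15a, had an unadjusted p under 0.05 and was higher, against 3.23% of all genes. The median was -0.05 against 0.04 over all genes. It was 0.11 without FT DA 1 and 0.0084 without CRV 3, so its sign rested on single libraries. Among the largest changes, Rps4x, the X-linked small subunit protein, had -0.61 (SE 0.30), Rpl36a had -0.72 (SE 0.55) and Rpl7l1 had 0.78 (SE 0.75), and their libraries overlapped.

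Abstinence against maintenance gave 0 of 87 called by edgeR, against 0.178% of all genes. An unadjusted p under 0.05 was seen for 7, all lower after abstinence, against 2.59%. DESeq2 called 2, Rps3 and Rps4x, both lower after abstinence, with adjusted p of 0.00636 and 0.0231. It called 4.16% of all genes in either direction, 677 of 19060 higher and 116 lower. Limma-voom called 0, against 0.157% of all genes. The median was -0.27 against 0.05, 72 of 87 were below 0 against 47.2% of all genes, and in 16 all CRV libraries lay below all MN libraries, against 4.52%. In 2, Rps12 and Rpl7l1, they lay above, against 7.68%. The median was -0.16 without MN 2. This comparison shares its MN libraries with the one above, so it is not a separate observation of them. With the term shared by MN and nDA 2 its median was 0.36, with 76 of 87 above 0, and Rps3 went from -0.73 to 0.22.

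Rps4x was at 45.4, 57.4 and 81.5 CPM in MN and 27.2, 38.7, 21.9 and 26.8 in CRV libraries. The groups did not overlap, and the log2 fold change was -1.11 (SE 0.32, adjusted p = 0.270 by edgeR). Rpl7 had -1.05 (SE 0.35), with 40.1, 57.2, 42.3 and 33.1 CPM in CRV, close to its FT range. Rpl22l1 was at 31.5, 50.0 and 23.3 CPM in MN and 21.1, 18.7, 15.1 and 20.2 in CRV, a value of -0.90 (SE 0.41). Rps12, a small subunit protein, went the other way, at 11.2, 10.8 and 8.90 CPM in MN and 27.3, 13.1, 15.0 and 14.6 in CRV, with a value of 0.76 (SE 0.55) and CRV 1 far above the others. Tested for any difference among the 3 stages, 0 of 87 were called by edgeR, against 0.0839% of all genes, 7 had an unadjusted p under 0.05, against 7.85% of all genes, DESeq2 called 2 (Rpl6 and Rps3), against 1.88%, and limma-voom 0, against 0.063%.

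**Figure D5:**
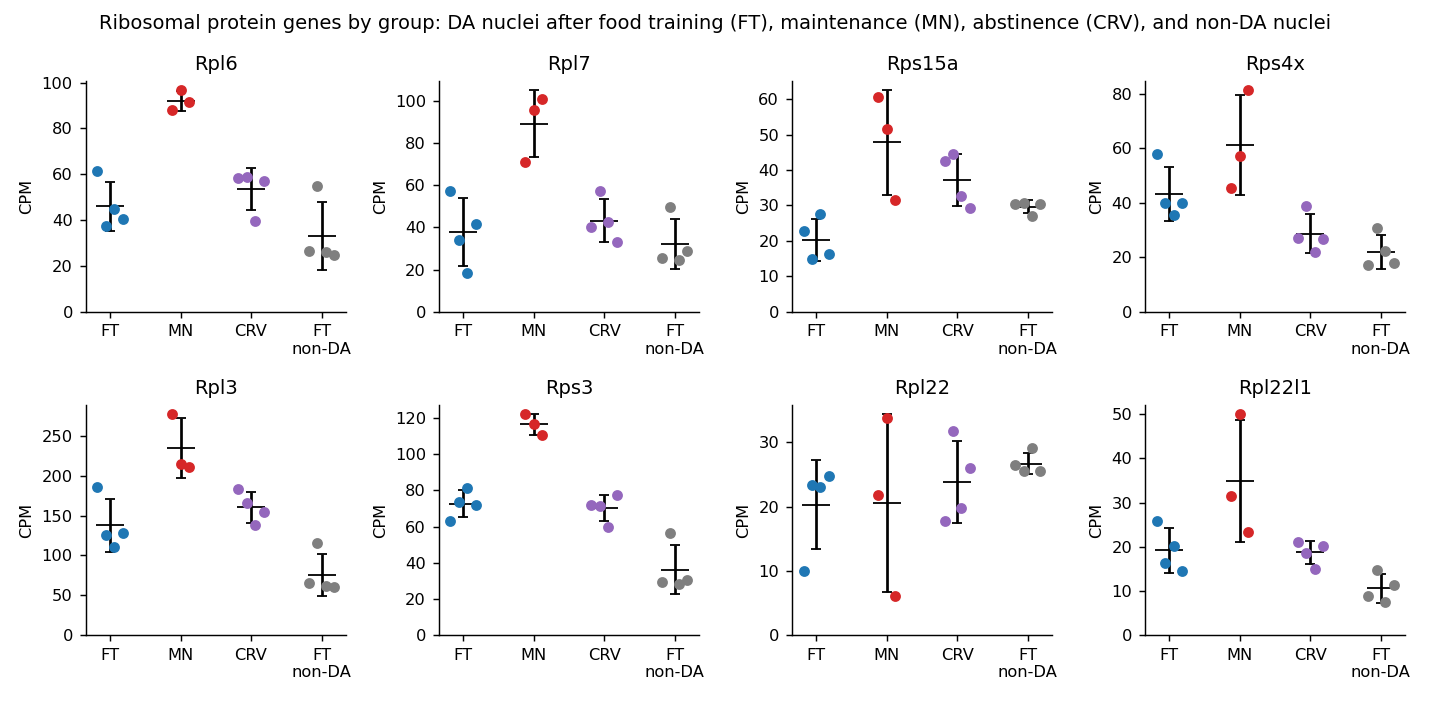
Levels in CPM of 8 ribosomal protein genes by group, a point per library with the group mean ± SD. Rpl6, Rpl7, Rpl3 and Rps3 have MN libraries above all FT and CRV libraries, Rps15a has every FT DA library below every MN and CRV library, and Rpl22 overlaps among all DA groups.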

How the data were processed

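Nuclear RNA was sequenced from 15 sorted pools. The deposited table holds whole-number counts per gene, and a second deposited table, not used, repeats 10 of its columns with 0 differing cells. Per the submitters' processing notes, Trim Galore 0.6.7, cutadapt 1.18, STAR 2.7.10a, StringTie 2.1.5 and DESeq2 1.38.3 were used with mm10 (GRCm38). Annotation and strand setting are not given in the sources used here, so antisense overlaps cannot be separated.

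Counts were fitted in edgeR 4.0.16 (filterByExpr, TMM, quasi-likelihood test, Benjamini-Hochberg over all genes tested, two-sided, threshold 0.05), with 8 libraries for the populations and 11 for the stages. DESeq2 1.42.0 and limma 3.58.1 were alternatives, and R was 4.3.3. CPM uses TMM factors of all 15 libraries. Symbols were matched to GENCODE for length and GC content (26763 of 35976 genes, 89 of 89 members).

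DA and nDA libraries of the same number deviated together (r of 0.116, 0.127, 0.262 and 0.243 over 8532 genes), so the replicate block was run beside the main test. The adjusted p-values printed are unpaired unless the block is named. No library pair had identical counts. The labels do not say that libraries of a group came from separate cohorts, so p-values measure the spread between pools of 2 mice.

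Members and lists were chosen with earlier results of these data known. Named genes are, per comparison, up to 12 called in each direction by p, up to 3 with the largest change in each direction among those with a mean of at least 20 counts, the 5 highest and 5 lowest by level per length, and a list by role. Genes with an unadjusted p under 0.05 in the stage comparisons were named after their values were seen. Some genes that this rule takes in are not reported here. Scripts were tested on simulated data with 200 changed genes, each at a log2 CPM over 4. At a log2 change of 1 the edgeR test called 0% of them, both for the populations and for MN over FT. At a log2 change of 3 it called 86.5% and 85.5%. A count of 0 called in a stage comparison therefore does not show equal levels.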

Additional observations from a re-analysis of the deposited data

Results flagged for a closer look

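A library far from the other 3 of its group was looked for in 46 measures over 138 groups of 4, and 22 were found. Chance gives about 1 in 20 for a single group. The measures come from the same libraries and vary together, so the 22 are not separate departures and their number cannot be set against that rate. Of the 22, 12 were library nDA 2 as the highest.

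In nDA 2 the summed level of all 89 genes was 2612 CPM, against 1694 to 1730 in the other 3. Single genes in nDA 2 were Rpl3 at 115 CPM, Rpl13 at 80.4, Rps3 at 56.6, Rpl6 at 55.0, Rps14 at 47.7, Rpl9 at 39.4, Rpl35 at 34.5, Rps19 at 33.5, Rpl11 at 32.6, Rplp1 at 28.7 and Rps26 at 20.6. In nDA 3, Rps15a was low at 26.9 CPM, against 30.4 to 30.6 in the other 3.

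In FT DA 1 the summed level was 5057 CPM, against 3280 to 3304 in the others, Rpl38 was high at 53.7 CPM and Rpl22 was low at 9.99. Rpl3l was at 4.36 CPM in FT DA 2 and at 0 in the other 3.

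In CRV DA nuclei, Rps12 (27.3 CPM) and Rpl5 (77.8) were high in library 1, Rplp0 (131) and Rpl36al (21.6) were high in library 2, and Rpl6 (39.6) was low in library 3.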

How the results depend on the processing

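In DA against nDA nuclei, 28 genes called became 54 with DESeq2, 57 with limma-voom (56 higher and Rpl3l lower), 5 with the replicate block, 46 without FT DA 3 and nDA 2 together, and 11 to 34 with each library left out in turn. The pairs of libraries left out were chosen after seeing the data. The median stayed above 0 throughout, at 0.82 to 1.24 with a library left out. Scaling by DESeq2 size factors, upper quartiles or TMM without the members called 29, 30 and 28, each including the same 28 genes.

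Among stages, DESeq2 called 5 for MN over FT, 2 for CRV over MN and 2 for any difference, and a batch term shared by MN and nDA 2, fitted over all 15 libraries, moved the medians to -0.48 for MN over FT and 0.36 for CRV over MN. Replicate numbers did not pair the stages (r from -0.351 to 0.110), and the replicate block called 0 of the 87 genes in each stage comparison. The highest 5 by level per length shared 2 with the order by median transcript length.

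Single values of named genes changed sign. In DA against nDA nuclei these were Rpl7 (-0.020 without FT DA 1, to 0.54 with a single library left out and 0.81 with a pair), Rpl10a (-0.017, to 0.43 and 0.51 likewise), and Rpl3l with limma-voom (-4.44), with the block (-6.12) and without FT DA 2 (-8.33, against up to 0.83 without another library). Rpl7l1 went to 0.074 with the term shared by MN and nDA 2, 0.21 without FT DA 3 and 0.046 without nDA 2. It went to 0.49 or 0.13 without nDA 2 and FT DA 3 or FT DA 1, against a lowest of -0.72 with 1 library left out. Rps4l went to 0.090 without FT DA 1, 0.021 without FT DA 2 and 0.026 without FT DA 1 and nDA 2, from a lowest of -0.64 with 1 library left out. The shared term left 10 of 87 genes above 0 in MN over FT, from 60, and 76 above 0 in CRV over MN, where 72 had been below 0. Of the named genes it took Rpl6 to -0.13, Rpl3 to -0.14 and Rps3 to -0.28 in the first, and Rps3 to 0.22 in the second. In MN over FT, Rpl3l went to 1.53 with limma-voom, 1.24 with the block and -8.61 to 7.30 with a library left out. In CRV over FT, Rpl3l ran from -0.78 without CRV 1 to 9.18. Rpl3l rests on few counts. For the rest the cause was not tested.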
